A study of Mus musculus with 12 samples.

Results

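Car2, Car4, Car13, Clcn7, Ostm1, Slc4a2 and Slc4a7 are genes of the acid secretion machinery of the osteoclast, the cell that dissolves bone. They were chosen by name: 7 genes were listed, and counts were analysed for 6 of them among the 23863 genes of the count table. Car4, a membrane-anchored carbonic anhydrase, was not analysed here. All 6 passed the filter on low counts that left 13236 genes for testing.

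An osteoclast seals off a patch of bone and pumps protons onto it. Carbonic anhydrases hydrate carbon dioxide to bicarbonate and a proton, and a vacuolar proton pump moves the protons across the ruffled border. The chloride-proton exchanger encoded by Clcn7, with its beta subunit encoded by Ostm1, moves chloride alongside them. The bicarbonate left behind is exchanged for chloride at the opposite membrane by the anion exchanger encoded by Slc4a2, while Slc4a7 encodes a sodium-bicarbonate cotransporter that brings bicarbonate in. Loss of CA2, CLCN7 or OSTM1 causes osteopetrosis, a disease of overly dense bone, in humans.

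RNA was sequenced from bone marrow osteoclast precursors of female and male mice, sorted as CD45R-, CD3-, CD11b-/lo and CD115+ cells. The 4 groups of 3 libraries were females with M-CSF+RANKL, males with M-CSF+RANKL, females with M-CSF and males with M-CSF. All of them carried 1 floxed RUNX1 allele (RUNX1 fl/+), the titles also tag them as WT, and the labels name no Cre and give no age. M-CSF keeps the precursors alive and growing, and RANKL, given at 30 ng/ml, drives them to become osteoclasts. Culture lasted 3 days by the titles and the treatment protocol, while the growth protocol gives another duration. Nothing in the labels tells whether replicates are different mice, and p-values therefore describe the spread between libraries, which may be technical.

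Totals ran from 14303174 to 15983769 counts in the M-CSF+RANKL libraries and from 10646697 to 14113420 in the M-CSF libraries. Mitochondrial genes took 2.96% to 3.86% of counts in M-CSF+RANKL libraries and 1.43% to 2.35% in M-CSF libraries, and the part of this shift in the results was not tested. The osteoclast label held in the treated cultures. All 10 osteoclast markers rose, among them Calcr (calcitonin receptor, at least 1510-fold against a floor of 3 counts over the 6 M-CSF libraries), Oscar (log2 fold change 12.28), Ctsk (cathepsin K, 12.20) and Mmp9 (12.15). Of 9 macrophage markers 8 fell, led by Mrc1 (-5.91), C1qc (-5.20), C1qa (-5.10) and C1qb (-4.81). Csf1r, which encodes the CD115 used in the sort, had a log2 fold change of -0.05 and was not called.

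The promoters of Clcn7 and Ostm1 are shown because their products form 1 complex while their RNAs moved by different amounts. The windows hold 250 bases before and 50 bases after the RefSeq start, on the plus strand, from RefSeq (GRCm38.p6), and 5 of the 7 genes had an entry; Clcn7 had 2, of which the one at the start of its GENCODE gene is shown. The RefSeq start of Ostm1 lies well inside the span that GENCODE vM21 gives the gene, which begins further upstream, so its window is not the promoter of that upstream start. Capitals mark CACGTG, an E-box palindrome that reads alike on both strands and that transcription factors of the MiT family (Mitf, Tfeb, Tfe3) can bind.
Clcn7, chr17:25133141-25133440: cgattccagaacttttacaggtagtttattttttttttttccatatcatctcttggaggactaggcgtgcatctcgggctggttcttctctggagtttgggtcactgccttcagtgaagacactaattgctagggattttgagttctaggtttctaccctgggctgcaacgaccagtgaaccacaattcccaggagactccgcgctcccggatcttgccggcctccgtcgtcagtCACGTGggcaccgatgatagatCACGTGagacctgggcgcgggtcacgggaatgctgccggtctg
Ostm1, chr10:42678666-42678965: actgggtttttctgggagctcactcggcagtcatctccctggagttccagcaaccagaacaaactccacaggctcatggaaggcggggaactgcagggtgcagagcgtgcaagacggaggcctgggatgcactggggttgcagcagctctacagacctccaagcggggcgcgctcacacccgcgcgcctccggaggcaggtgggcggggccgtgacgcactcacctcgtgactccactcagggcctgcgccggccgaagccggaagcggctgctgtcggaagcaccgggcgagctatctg
The Clcn7 window held 2 matches, which began 15 bases before and 7 bases after the start. Of 32544 RefSeq promoter windows of that length, 7.17% held at least 1 match and 0.599% held 2 or more. The Ostm1 window, the second Clcn7 window and those of Car4, Slc4a2 and Slc4a7 held no CACGTG. Over both sexes the log2 fold change was 2.69 for Slc4a2 and 2.53 for Clcn7. The windows of Slc4a2 and Slc4a7 also lie inside the GENCODE spans of these genes, so they are not the promoters of those upstream starts. Whether a match goes with the size of a response was not tested. Neither the shown Clcn7 window nor the Ostm1 window held TGANTCA, the palindrome bound by AP-1 factors. It was found on either strand in 7.79% of all windows. The cores GGAAA (NFAT factors) and GAGGAAGT (PU.1) were searched as well. GGAAA, present in 61.5% of all windows, had 1 match in the shown Clcn7 window and 0 in the Ostm1 window. GAGGAAGT, present in 3.11% of all windows, had 0 matches in both. These matches describe letters in a window and were not tied to binding or to a change in RNA.

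RANKL raised all 6 analysed genes over both sexes, in edgeR's quasi-likelihood test with p-values adjusted over all tested genes. The background was high: 33.4% of tested genes were called higher and 31.3% lower in that comparison, so a call alone sets a gene little apart. The sizes of the responses differed widely. Their median log2 fold change was 1.96, against 0.02 over all tested genes. The genes were chosen with earlier results of these data known, so this gap is only a description. Car2 was abundant with RANKL and nearly absent without it, Slc4a2 and Clcn7 rose by close amounts, Slc4a7 and Ostm1 rose less, and Car13 rose least. In bulk RNA, fewer cells of a type and less RNA per cell cannot be told apart.

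**Figure D1:**
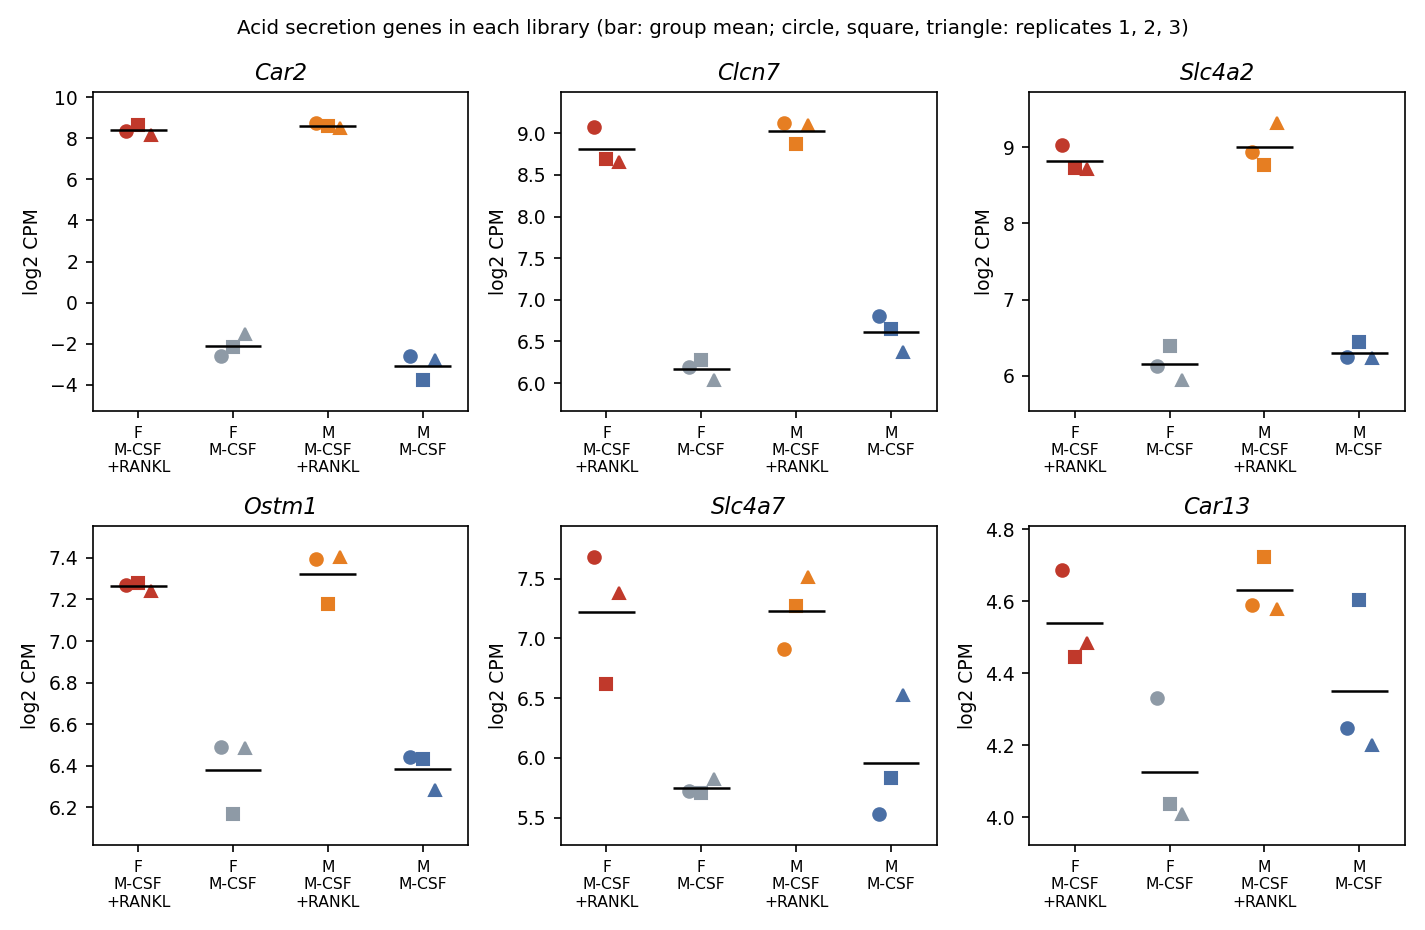
Level of each gene in each library as log2 CPM (counts scaled to library size), in female (F) and male (M) cultures with M-CSF+RANKL or M-CSF; points are libraries and bars are group means. In 5 of the 6 panels every M-CSF+RANKL library lies above every M-CSF library, and in the Car13 panel the groups overlap.

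Car2 encodes carbonic anhydrase II, the fast cytosolic enzyme that supplies protons for secretion. Its level was 329, 394 and 286 CPM (counts per 1000000 counts of the library, with TMM scaling) in the female M-CSF+RANKL libraries and 428, 383 and 359 CPM in the male M-CSF+RANKL libraries. The female M-CSF libraries held 1, 2 and 3 counts and the male M-CSF libraries 1, 0 and 1 counts. The groups were far apart, and M-CSF cultures were at the edge of detection in every library.

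Summed over both sexes, Car2 had 32610 counts in M-CSF+RANKL libraries and 8 counts in M-CSF libraries, a depth-adjusted ratio of 3360 with a 95% counting interval of 1700 to 7780. The ratio was 1950 (897 to 5330) in females, on 15026 and 6 counts, and 7620 (2110 to 62900) in males, on 17584 and 2 counts. These intervals cover counting error only. The fitted log2 fold change was 11.76 with an adjusted p of 4.11e-14 by edgeR, and since its lower arm rests on 8 counts the counting interval is the better guide to its precision. Red cell precursors are another known source of Car2, and markers of that lineage were at or near 0. Of 10 erythroid markers 4 had a row in the table and none passed the filter, with summed levels of 0.200 to 0.634 CPM in M-CSF+RANKL libraries and 0.186 to 0.569 CPM in M-CSF libraries.

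Car13 encodes another cytosolic carbonic anhydrase. It measured 25.7, 21.7 and 22.3 CPM in female M-CSF+RANKL libraries and 24.0, 26.3 and 23.8 CPM in male M-CSF+RANKL libraries. The levels were 20.1, 16.4 and 16.0 CPM in female M-CSF libraries and 18.9, 24.3 and 18.3 CPM in male M-CSF libraries. The female groups did not overlap, while male M-CSF replicate 2, at 24.3 CPM, lay above 2 of the 3 male M-CSF+RANKL libraries. It was the gene of the set with the smallest change, a log2 fold change of 0.34 ± 0.10 (SE, adjusted p = 0.00815 by edgeR over both sexes).

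By sex, in the main fit without pairing, Car13 rose in females (0.41 ± 0.14, adjusted p = 0.0255 by edgeR) and missed the threshold in males (0.27 ± 0.14, adjusted p = 0.12). The difference between these responses was 0.14 ± 0.20 and was not called (adjusted p = 0.9999 by edgeR). Without male M-CSF replicate 2 the male value was 0.40 with an adjusted p of 0.0341, and with replicate number as a block it was 0.28 with an adjusted p of 0.0312. The female call was lost without M-CSF+RANKL replicate 1 (adjusted p = 0.0876), without M-CSF replicate 2 (0.0761), without M-CSF replicate 3 (0.0911) and with no filter on low counts (0.0512).

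The makeup of carbonic anhydrase RNA changed with RANKL. Over the 13 analysed carbonic anhydrase genes, Car2 took 85.5% to 89.8% of the counts in M-CSF+RANKL libraries and at most 0.584% in M-CSF libraries. Car13 took 4.90% to 6.76% with RANKL and 34.4% to 52.4% with M-CSF alone, although its own level was slightly higher with RANKL. Car5b, a mitochondrial form, took 1.52% to 3.83% with RANKL and 25.8% to 45.5% with M-CSF alone. The summed carbonic anhydrase level was 334 to 477 CPM in M-CSF+RANKL libraries and 37.5 to 46.5 CPM in M-CSF libraries. Shares count reads without regard to transcript length.

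Car2 and Car13 lie on the same strand of chromosome 3, 244.5 kb apart from start to start (Car2 at 14886273 to 14900770 and Car13 at 14641727 to 14663002, GRCm38, GENCODE vM21). Of 5 tested genes with a start within 500 kb of that of Car2, 1 rose and 2 fell, against 33.4% and 31.3% of all tested genes. The riser was Car13, and the genes that fell were Lrrcc1 (log2 fold change -0.41) and E2f5 (-0.62). Car3, a cytosolic carbonic anhydrase whose start lies at -22.8 kb from that of Car2, had 4 counts in all 12 libraries.

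Clcn7, on chromosome 17 (25133391 to 25162104, plus strand, GRCm38), encodes the chloride-proton exchanger of lysosomes and the ruffled border. It measured 541, 413 and 404 CPM in female M-CSF+RANKL libraries and 558, 468 and 546 CPM in male M-CSF+RANKL libraries. Levels were 73.1, 77.6 and 65.4 CPM in female M-CSF libraries and 112, 100.3 and 82.9 CPM in male M-CSF libraries. Treated and untreated libraries were well apart, and within M-CSF every male library was above every female one. Over both sexes the log2 fold change was 2.53 ± 0.10 (SE, adjusted p = 1.16e-10 by edgeR), which is a fold of 5.79 with a 95% interval of 4.95 to 6.76.

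Ostm1, on chromosome 10 (42583822 to 42702459, plus strand), encodes the beta subunit that stabilises the Clcn7 protein. Its level was 154, 155 and 151 CPM in female M-CSF+RANKL libraries and 168, 145 and 169 CPM in male M-CSF+RANKL libraries. It was 90.0, 71.7 and 89.6 CPM in female M-CSF libraries and 86.9, 86.2 and 77.8 CPM in male M-CSF libraries. The treatments did not overlap, and the female M-CSF+RANKL libraries lay within a coefficient of variation of 1.26%. The log2 fold change was 0.91 ± 0.08 (SE, adjusted p = 1.27e-07 by edgeR), a fold of 1.88 with a 95% interval of 1.68 to 2.10. An antisense gene, Gm15200, overlaps Ostm1 exons and has no counts of its own in the table used here.

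The fold changes of the chloride exchanger and its subunit differed, and their ratio is given as a description. The Clcn7 to Ostm1 ratio of CPM was 3.10 ± 0.352 in M-CSF+RANKL libraries and 1.02 ± 0.212 in M-CSF libraries (SD, n = 6 each). The lowest treated ratio was 2.66 and the highest untreated ratio 1.29. The log2 difference was 1.62. This and the other 2 ratios below were chosen after the fold changes were known, so no test is given for them.

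**Figure D2:**
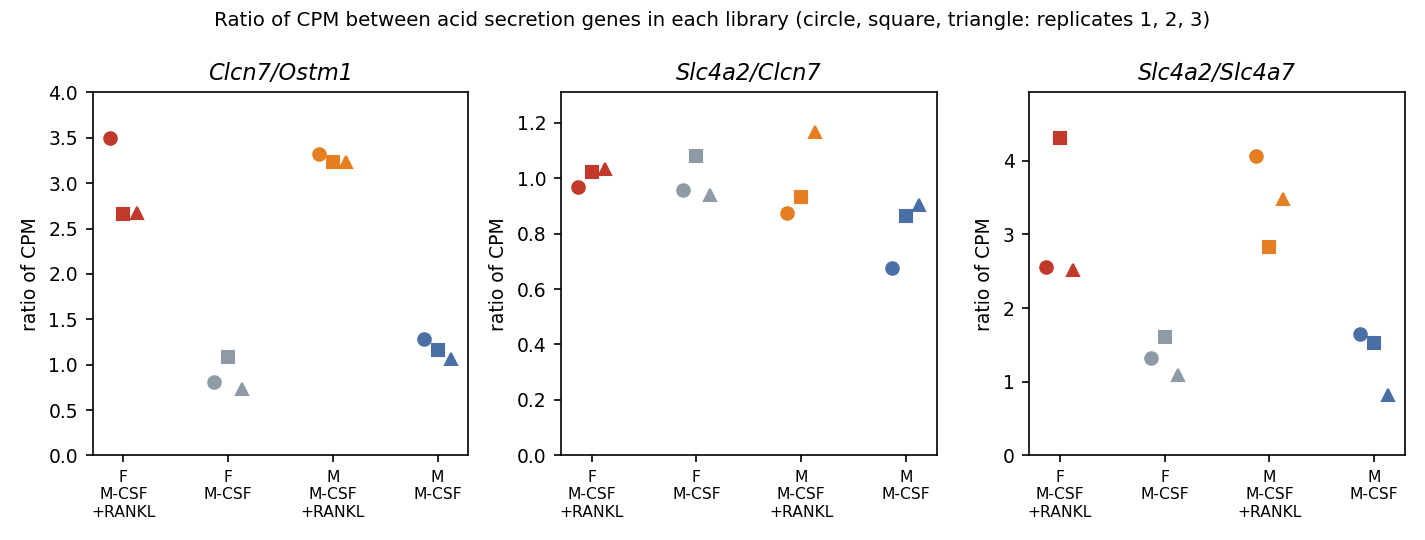
Ratio of CPM between pairs of genes in each library, in female (F) and male (M) cultures with M-CSF+RANKL or M-CSF. The Clcn7 to Ostm1 and Slc4a2 to Slc4a7 ratios are higher in every M-CSF+RANKL library than in any M-CSF library, and the Slc4a2 to Clcn7 ratios overlap.

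Slc4a2, on chromosome 5 (24423837 to 24440950, plus strand), encodes the chloride-bicarbonate exchanger that removes bicarbonate from the osteoclast. It measured 524, 422 and 418 CPM in female M-CSF+RANKL libraries and 488, 437 and 638 CPM in male M-CSF+RANKL libraries. Levels were 69.9, 83.9 and 61.4 CPM in female M-CSF libraries and 75.8, 86.7 and 75 CPM in male M-CSF libraries. All treated libraries lay far above all untreated ones, and male M-CSF+RANKL replicate 3 was the highest. The log2 fold change was 2.69 ± 0.12 (SE, adjusted p = 1.72e-10 by edgeR), a fold of 6.45 with a 95% interval of 5.43 to 7.67.

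The exons of Slc4a2 overlap those of Fastk, which lies on the other strand and also rose. Fastk measured 124 ± 12.3 CPM in M-CSF+RANKL libraries and 52.9 ± 4.06 CPM in M-CSF libraries (SD, n = 6 each), a log2 fold change of 1.23 (adjusted p = 8.2e-09 by edgeR). The kit keeps strand, but whether counting used it is not stated in what was used here, and reads shared by this pair are uncertain. The Slc4a2 to Clcn7 ratio was 1 ± 0.101 in M-CSF+RANKL libraries and 0.904 ± 0.133 in M-CSF libraries (SD, n = 6 each). It ran from 0.875 to 1.17 in M-CSF+RANKL libraries and from 0.677 to 1.08 in M-CSF libraries, with a log2 difference of 0.15, and these ranges overlapped.

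Slc4a7, on chromosome 14 (14702279 to 14799940, plus strand), encodes a sodium-bicarbonate cotransporter. Its level was 205, 97.9 and 166 CPM in female M-CSF+RANKL libraries and 120.2, 154 and 183 CPM in male M-CSF+RANKL libraries. It was 52.7, 52.1 and 56.4 CPM in female M-CSF libraries and 46.0, 56.7 and 92.0 CPM in male M-CSF libraries. The treatments stayed apart only narrowly, with female M-CSF+RANKL replicate 2 just above male M-CSF replicate 3. The log2 fold change was 1.38 ± 0.19 (SE, adjusted p = 2.16e-05 by edgeR), a fold of 2.61 with a 95% interval of 1.96 to 3.48.

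Slc4a7 had a larger spread between replicates than Clcn7, Ostm1, Slc4a2 or Car13 in 3 of the 4 groups, and the smallest of these 5 genes in female M-CSF. Its coefficient of variation was 34.7% in female M-CSF+RANKL, 20.6% in male M-CSF+RANKL, 4.28% in female M-CSF and 37.1% in male M-CSF libraries. The Slc4a2 to Slc4a7 ratio of CPM was 3.29 ± 0.778 in M-CSF+RANKL libraries and 1.34 ± 0.329 in M-CSF libraries (SD, n = 6 each). The log2 difference was 1.31, and the lowest M-CSF+RANKL ratio was 2.52 against a highest M-CSF ratio of 1.65. These ratios take no account of length.

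The 6 M-CSF+RANKL libraries lay above the 6 M-CSF libraries without overlap for 5 of the 6 genes, the exception being Car13. Such separation upward held for 24.3% of all tested genes. Within females all 6 genes were called higher, against 26.8% of tested genes, and within males 5 of 6, against 28.4%.

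**Figure D3:**
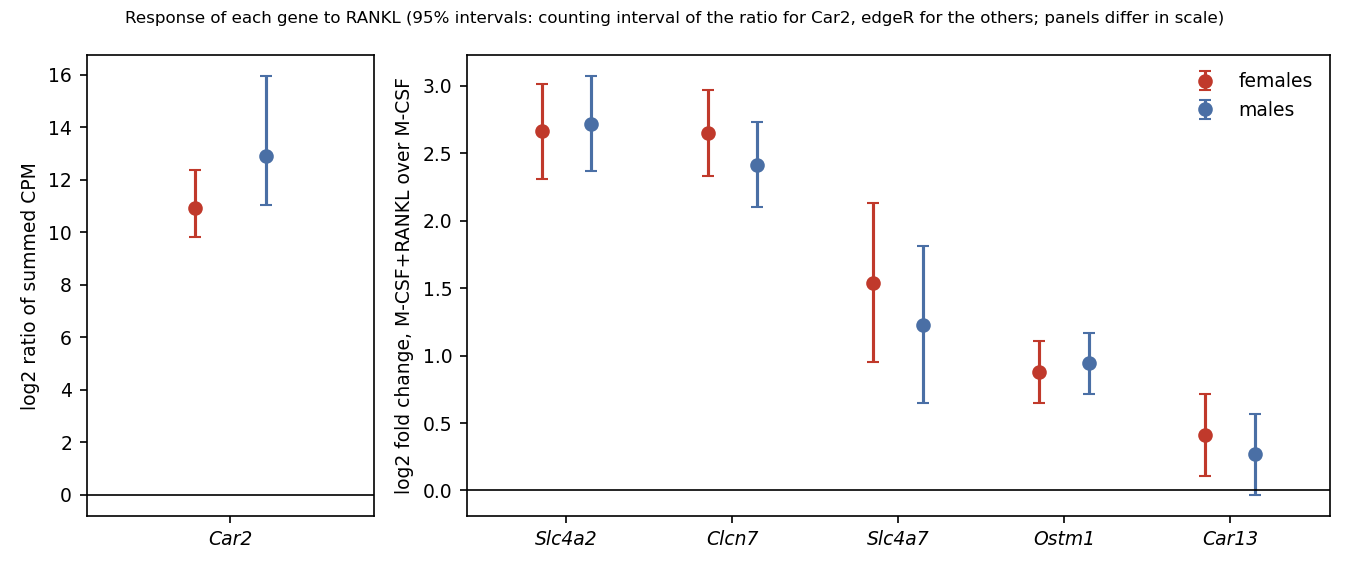
Response to RANKL in females and in males. Car2 is drawn apart as the log2 ratio of summed depth-adjusted counts with its 95% counting interval, and the other genes as edgeR log2 fold changes of M-CSF+RANKL over M-CSF with 95% intervals; the male Car13 interval crosses 0.

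Levels of different genes were compared per length, as RPKM (CPM per kilobase of the union of a gene's exons). In M-CSF+RANKL libraries Car2 stood first at 150 ± 20.8 RPKM (SD, n = 6, as for the values that follow), then Clcn7 at 92.3 ± 13.1 RPKM and Slc4a2 at 58.6 ± 10.1 RPKM. Below them were Ostm1 at 21.8 ± 1.34 RPKM, Car13 at 10.4 ± 0.790 RPKM and Slc4a7 at 10.2 ± 2.61 RPKM. Libraries of Clcn7 and Slc4a2 touched at the edge (lowest Clcn7 76.4 RPKM, highest Slc4a2 76.6 RPKM), and those of Car13 lay within the range of Slc4a7.

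The order was another in M-CSF alone. Clcn7 led at 16.1 ± 3.32 RPKM, followed by Ostm1 at 11.6 ± 1.02 RPKM, Slc4a2 at 9.07 ± 1.11 RPKM and Car13 at 8.26 ± 1.31 RPKM, each overlapping its neighbour in the order. Slc4a7 at 3.90 ± 1.08 RPKM lay below these, and Car2 came last at 0.0468 ± 0.0379 RPKM. With the length of the longest transcript in place of the union of exons, Slc4a7 at 19.0 RPKM stood above Car13 at 10.4 RPKM in M-CSF+RANKL libraries, and Clcn7 and Slc4a2 were at 115 and 114 RPKM. By that length Slc4a7 and Car13 overlapped in M-CSF libraries. Slc4a7 was at 7.30 RPKM (5.66 to 11.3) and Car13 at 8.26 RPKM (6.97 to 10.6).

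**Figure D4:**
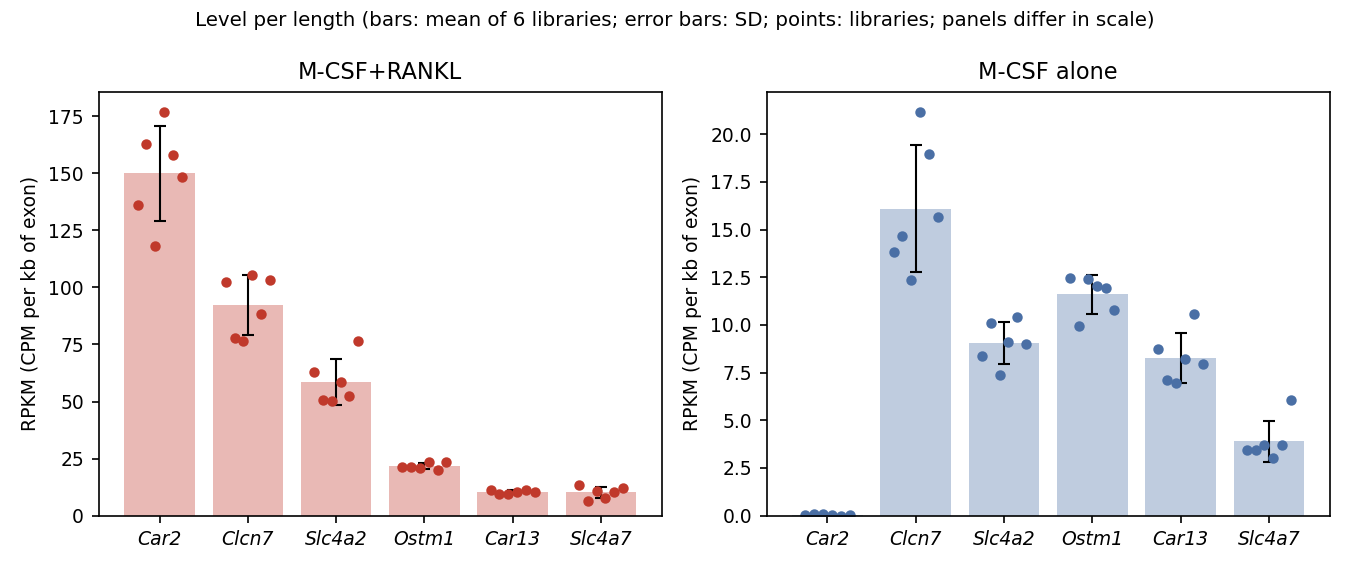
Level per length (RPKM) of each gene in M-CSF+RANKL libraries (left) and M-CSF libraries (right); bars are means of 6 libraries, error bars SD and points libraries, with a different scale in each panel. Car2 is first at 150 RPKM in the left panel and last at 0.0468 RPKM in the right one.

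No difference between female and male cultures was detected in any of the 6 genes. With M-CSF+RANKL, 0 of the 6 genes differed between female and male libraries by edgeR, where 0.0529% of all tested genes did, and no gene of the set had an unadjusted p below 0.05. Log2 differences, female minus male, ran from -0.21 (Car2 and Clcn7) to 0.03 (Slc4a7). With M-CSF alone 0 of 6 were called by edgeR, against 0.0453% of tested genes, and 1 had an unadjusted p below 0.05. DESeq2 called 0 of 6 in both comparisons.

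That gene was Clcn7, which averaged 72.0 ± 6.15 CPM in females and 98.4 ± 14.6 CPM in males (SD, n = 3 each) under M-CSF. Its log2 difference of -0.45 ± 0.14 (SE) had an adjusted p of 0.873 by edgeR, and the authors' deposited table gives -0.45 with a false discovery rate of 0.849. Under M-CSF+RANKL its mean was 453 CPM in females and 524 CPM in males, a log2 difference of -0.21 ± 0.14.

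For the response itself, female minus male, 0 of 6 genes were called by edgeR or by DESeq2, 0 had an unadjusted p below 0.05, and 0% of all tested genes were called, 260 of them having an unadjusted p below 0.05. Differences of log2 responses ranged from -0.07 (Ostm1) to 0.31 (Slc4a7) outside Car2. The Slc4a7 interval ran from -0.51 to 1.12, so differences of that size were not detectable here, while the Ostm1 interval was -0.39 to 0.26. The Car2 difference of -1.81 had an interval of -3.71 to 0.10 and rests on 6 female and 2 male counts in M-CSF. Neutrophil and granule genes, a list of 10, differed between the sexes in summed level. They summed to 101 to 315 CPM in female M-CSF+RANKL and 58.0 to 88.3 CPM in male M-CSF+RANKL libraries, and to 97.9 to 306 CPM in female M-CSF and 54.9 to 81.3 CPM in male M-CSF libraries. Of the 9 tested, none was called in any comparison by edgeR, and their part in the values of the sexes was not tested.

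Other genes of acid-base transport did not move as a block. Across 7 lists of 62 such genes, 54 had a row and 32 were tested, of which 17 rose and 8 fell over both sexes by edgeR, with a median log2 fold change of 0.27. Over all tested genes 33.4% were called higher and 31.3% lower, and the counts of each list below stand against these shares. These lists were chosen with earlier results of these data known.

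Among the other carbonic anhydrases 4 were tested, and 1 rose and 1 fell. Car8, a carbonic anhydrase-related protein that lacks the catalytic activity, had 22 to 56 counts per M-CSF+RANKL library and 0 in all M-CSF libraries, at least 64.5-fold higher against a floor of 3 counts over the 6 libraries. Car5b fell, with a log2 fold change of -0.46 (adjusted p = 0.0128 by edgeR). Both tested relatives of Slc4a2 and Slc4a7 rose: Slc4a3, an anion exchanger, by 5.08 and Slc4a8, a sodium-driven chloride-bicarbonate exchanger, by 3.57 on the log2 scale. Both were scarce beside Slc4a2, at 11.9 and 6.42 CPM in M-CSF+RANKL libraries, a comparison by counts that takes no account of length.

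Of the other CLC genes 5 were tested, none rose and 2 fell. Clcn5, an endosomal exchanger, had a log2 fold change of -1.38 and Clcn6, a late endosomal one, -1.02. Clcn3 (-0.04), Clcn4 (-0.03) and Clcn2 (0.20) were not called. Clcn7 was the only one of the 6 tested CLC genes called higher by edgeR over both sexes.

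Of 4 tested SLC26 anion exchangers 3 rose and 1 fell. Slc26a2, a sulfate transporter, rose by 0.80 on the log2 scale, while Slc26a11 fell by 0.91. Of 9 tested sodium-proton exchangers 5 rose and 3 fell. Slc9b2, known as an osteoclast sodium-proton antiporter, measured 703 ± 72.5 CPM in M-CSF+RANKL libraries and 1.94 ± 0.695 CPM in M-CSF libraries (SD, n = 6 each), a log2 fold change of 8.49. Its relative Slc9b1 changed by 6.92, Slc9a5 by 1.86 and the endosomal exchanger Slc9a9 by -3.99. Slc9b1 averaged 0.068 CPM in M-CSF libraries, near the floor, so the size of its change rests on very few counts there.

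Among 4 tested monocarboxylate transport genes 2 rose and 1 fell, with Slc16a7 at 2.31 and the lactate exporter Slc16a3 at -1.15. All 4 tested genes of a list on ruffled border formation and trafficking rose. They were Snx10, a sorting nexin (3.28), Tcirg1, the a3 subunit of the proton pump (1.91), Plekhm1, an adaptor of lysosome fusion (0.50), and Rab7, a small GTPase of late endosomes (0.26).

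**Figure D5:**
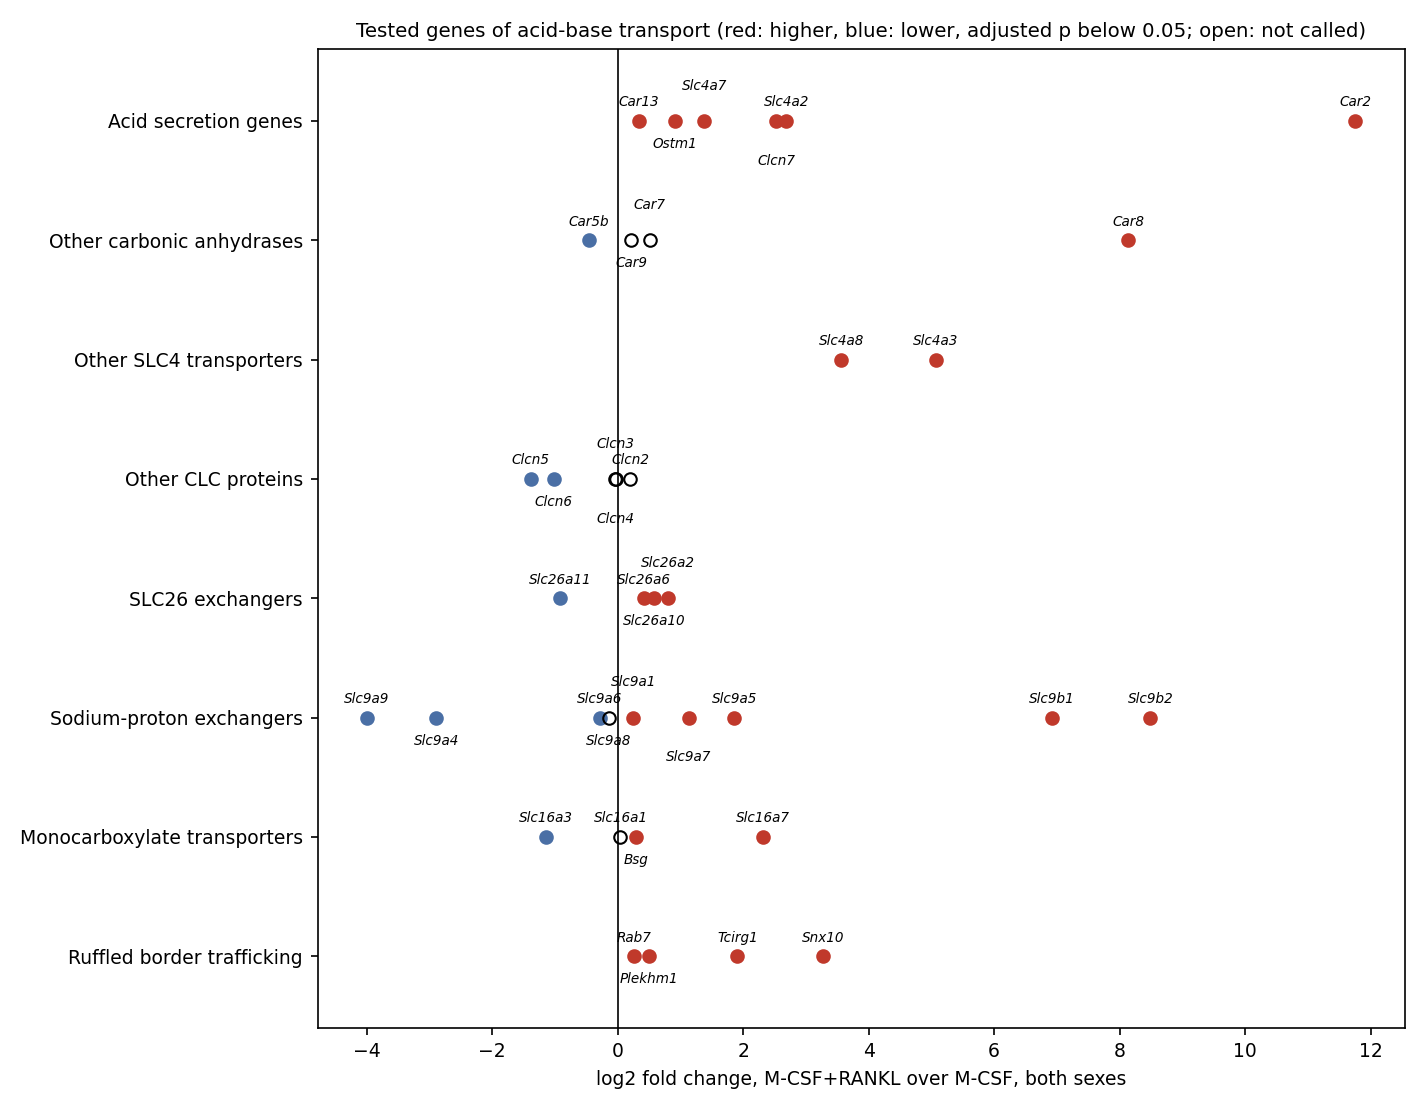
Log2 fold change of M-CSF+RANKL over M-CSF, over both sexes, for every tested gene of the set (top row) and of 7 further lists of acid-base transport and ruffled border genes. Red points were called higher, blue points lower and open points were not called; Clcn7 is higher while Clcn5 and Clcn6 are lower.

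The genes whose pattern was most like each member were taken by Pearson correlation of log2 CPM over the 12 libraries, as a description, since all points share the treatment split. Car2 was most like Idh3a (r = 0.998), Uqcrc2 and Dlst, which encode mitochondrial enzymes of the citric acid cycle and respiratory chain, and 1435 genes exceeded r = 0.95 with it. Slc4a2 was closest to Pip5k1c (0.998), Mfn2 and Perm1, with 1407 genes above 0.95, and Clcn7 to Clic5 (0.995), Dchs1 and Layn, with 1303. Ostm1 was closest to Tax1bp3 (0.995), Arhgap28 and Pip5k1b, with 1050 genes. Slc4a7 was closest to Setd7 (0.986), Cstf2 and Fryl, with 123 genes, and Car13 to Stk38 (0.973), Lgals8 and the lysosomal cystine transporter gene Ctns, with 5 genes.

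Deviations of each library from its own group mean were compared among the 5 genes other than Car2. Clcn7 and Slc4a2 deviated together with r = 0.647 over 12 libraries, and the other 9 pairs ranged from -0.223 to 0.307. These points share library depth and culture, and the values are given as a description.

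In the authors' deposited table Car13 has a log2 fold change of 0.43 with a false discovery rate of 0.0193 in females and 0.28 with 0.0973 in males. For Slc4a7 the authors' deposited table gives 1.55 in females and 1.24 in males, with false discovery rates of 0.000328 and 0.00149.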

How the data were processed

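RNA was sequenced from 12 libraries in 4 groups of 3. Per the labels' protocols, an RNeasy Plus kit and a TruSeq Stranded mRNA kit, which selects poly(A) RNA, were used. Tools named in the submitters' processing notes are STAR 2.7.3a, fastp and edgeR, with the build mm10. How reads were counted, with or without strand and on which annotation, is not given in the sources used here. The authors deposited whole-number read counts per gene, which were used for every value, and a table with their own log2 fold changes and p-values as FDR, quoted where named. 0 columns of per-sample values were left without a sample.

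The fit used R 4.3.3 and edgeR 4.0.16 (with limma 3.58.1), files were read with data.table (1.17.8), and DESeq2 1.42.0 served as an alternative. Low counts were removed by filterByExpr (minimum count 10), libraries were scaled by TMM, and a quasi-likelihood model gave each group its own mean over the 12 libraries (8 residual degrees of freedom). A gene was called where its p, adjusted by Benjamini-Hochberg over all 13236 tested genes, was below 0.05. SEs were derived from the F statistic. Log2 CPM used a prior count of 1. CPM used TMM-scaled library sizes. Levels per length used GENCODE vM21, which held 23855 of the 23863 gene IDs. Depth ranged from 10646697 to 15983769 counts.

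The members and lists were chosen with earlier results of these data known. Named genes were the members, up to 4 genes per list with the largest change among those called the same way in both sexes with a mean of at least 1 CPM, and the 3 genes most like each member. Genes outside the rule (Car5b, Car3, Fastk, Clcn2, Clcn3, Clcn4, Lrrcc1, E2f5, Csf1r) were named after their values were seen. Alternatives were DESeq2 size factors, no filter, the DESeq2 test, fits of the compared groups alone, a replicate block, and leaving out each library. Same-numbered libraries within a sex deviated together (r = 0.303 to 0.704 over 8903 genes, against -0.616 to -0.0113 for other numbers). Deviations cancel out within a group, so positive values for same numbers make the others negative on average. For the responses, the replicate block therefore paired same-numbered libraries within a sex, while the main fit left pairing out. With this block 9401 genes were called over both sexes by edgeR, against 8562 in the main fit.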

Additional observations from a re-analysis of the deposited data

How the results depend on the processing

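All 6 genes were called over both sexes under each of the 16 alternatives, and Car2, Clcn7, Ostm1, Slc4a2 and Slc4a7 within each sex under each of 17. Calls in either direction were common among all tested genes too. Over both sexes they numbered 8564 of 13236 by DESeq2, 9401 of 13236 with the replicate block and 9465 of 23863 with no filter. By DESeq2, 6938 of 13236 were called in females and 7288 in males. Keeping a call therefore sets these genes little apart. In females 5 to 6 genes and in males 5 to 6 were called when 1 library was left out, where Car13 made the difference. Among all tested genes these fits called from 6293 of 13558 to 7048 of 13530 in females. In males they called from 6675 of 13490 to 7516 of 13494. Car13 over both sexes had adjusted p-values of 0.000961 to 0.0225 by edgeR or DESeq2. With the paired fit (replicate block) Car13 in males was 0.28 (adjusted p = 0.0312), the only call of these genes that the block changed.

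Values near 0 changed sign without any call. With 1 library left out, the difference of responses ran from -0.18 to 0.12 for Slc4a2 and from -0.030 to 0.55 for Slc4a7. The female minus male difference in M-CSF+RANKL ran from -0.21 to 0.27 for Slc4a7. In M-CSF it ran from -0.052 to 0.10 for Ostm1 and from -0.47 to 0.064 for Slc4a7. For Ostm1 in M-CSF it was -0.0027 with no filter and -0.0043 with the replicate block. Between the sexes, that block gave same-numbered libraries of all groups a shared term, a pairing that the labels do not state. The cause of these sign changes was not tested. Over all tested genes, those called between the sexes numbered 7 in M-CSF+RANKL and 6 in M-CSF, against 20 and 16 by DESeq2 and 11 and 12 with no filter. They numbered 12 in M-CSF+RANKL without its female replicate 2, and 10 in M-CSF when those groups alone were fitted. Car2 between the sexes in M-CSF has too few counts to pass the filter when those groups alone are fitted, so that value was not run. Depth limits the size of the Car2 change, which rests on 8 counts in the M-CSF libraries.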
